A study of Mus musculus with 24 samples.

Results

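A set of 10 neutrophil genes, most of which encode granule proteins, was followed through RNA-seq of mouse spleen cells. Elane, Mpo and Prtn3 are early granule genes, and Ltf, Camp, Ngp, S100a8, S100a9, Lcn2 and Mmp9 are grouped as late granule genes. S100a8 and S100a9, whose proteins are mainly cytosolic, are counted with the late group. The members were the rows with exactly these symbols, 10 of the 21671 genes listed in every sample, and all 10 were found in all 24 samples. The samples came from the spleens of C57/Bl6 mice of 8 weeks, either wild-type (Trp53+/+) or Trp53-/-, the latter lacking the tumor suppressor p53. Mice were left untreated (mock) or given 7 Gy of whole-body ionizing radiation (IR), and spleens were taken 4 h later. Cells retained by magnetic beads against B220, a surface marker of B cells, were the B cells, and the remainder formed the non-B cells, a mixture of T cells and the other spleen cells left after lysis of red blood cells. There were 8 groups, with 4 wild-type and 2 Trp53-/- samples for each combination of cell type and treatment. The methods describe these as separate mice, 4 wild-type and 2 Trp53-/- for a condition, and the labels do not say which B and non-B samples shared a mouse.

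Granules are filled in order as a neutrophil matures in the bone marrow, or in the spleen where blood formation also takes place in mice. Promyelocytes, early precursors that still divide, transcribe the contents of the azurophil granules, which are serine proteases and myeloperoxidase. Later precursors stop making these and transcribe the contents of specific and gelatinase granules and the abundant S100 proteins. Mature neutrophils retain transcripts of several late genes and have little of the early ones, so the early transcripts mark the immature stages of the lineage.

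The early genes encode neutrophil elastase (Elane) and proteinase 3 (Prtn3), both serine proteases, and myeloperoxidase (Mpo), which makes hypochlorous acid. On NCBIM37, the assembly that mm9 represents, Prtn3 (chr10:79337221-79345919) and Elane (chr10:79349057-79350961) lay on the plus strand with 3137 bases and no annotated gene between them, and Mpo was at chr11:87607083-87617915. Of the late genes, S100a8 (chr3:90472993-90473956, plus strand) and S100a9 (chr3:90496554-90499643, minus strand) were 22597 bases apart. Camp, Ngp and Ltf all lay on chromosome 9, at 109749889-109751970, 110322254-110325514 and 110921796-110945270. Lcn2 (32240153-32243317) and Mmp9 (164766280-164781350) were both on chromosome 2. The GENCODE annotation places another gene over part of Prtn3 (BC005764) and of Mpo (Gm11505). The libraries did not keep strand, so reads of such overlaps cannot be told apart.

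Promoter sequences are shown for the early genes and for Ltf, Camp and Ngp, since the levels of each of these trios moved together among the non-B samples. They come from RefSeq (GRCm38.p6) and were placed on NCBIM37 by an exact, single match. Each starts 250 bases before the RefSeq start and ends at that start or, for Mpo, Prtn3 and Ngp, where the first exon that GENCODE annotates within the window begins, which left 47, 197 and 192 bases. The Prtn3 window lies wholly inside the gene as GENCODE annotates it, whose start is further upstream, and ends at an internal exon. Capitals mark GAGGAAG, a core of sites bound by PU.1, and TTGCNNAA, a form of the C/EBP site, on either strand. PU.1 and the C/EBP factors are the main transcription factors of granulocyte formation.
Elane: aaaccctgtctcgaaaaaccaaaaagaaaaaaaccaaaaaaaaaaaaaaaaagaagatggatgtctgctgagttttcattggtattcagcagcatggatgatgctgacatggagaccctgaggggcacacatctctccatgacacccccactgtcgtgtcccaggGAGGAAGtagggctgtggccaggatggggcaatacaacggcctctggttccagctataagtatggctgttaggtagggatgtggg
Prtn3: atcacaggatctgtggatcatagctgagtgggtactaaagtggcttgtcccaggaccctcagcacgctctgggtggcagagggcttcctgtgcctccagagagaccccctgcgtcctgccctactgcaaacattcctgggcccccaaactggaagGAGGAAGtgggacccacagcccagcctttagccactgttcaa
Mpo: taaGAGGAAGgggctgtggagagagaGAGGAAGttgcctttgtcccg
Ltf: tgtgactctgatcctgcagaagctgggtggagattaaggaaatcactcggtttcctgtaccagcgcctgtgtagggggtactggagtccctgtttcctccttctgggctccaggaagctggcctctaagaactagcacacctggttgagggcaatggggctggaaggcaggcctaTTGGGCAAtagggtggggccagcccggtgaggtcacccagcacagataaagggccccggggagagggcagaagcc
Camp: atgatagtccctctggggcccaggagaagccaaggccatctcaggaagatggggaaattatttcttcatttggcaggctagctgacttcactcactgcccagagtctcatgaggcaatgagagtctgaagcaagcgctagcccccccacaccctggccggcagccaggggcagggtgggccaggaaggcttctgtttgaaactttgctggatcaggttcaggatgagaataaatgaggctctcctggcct
Ngp: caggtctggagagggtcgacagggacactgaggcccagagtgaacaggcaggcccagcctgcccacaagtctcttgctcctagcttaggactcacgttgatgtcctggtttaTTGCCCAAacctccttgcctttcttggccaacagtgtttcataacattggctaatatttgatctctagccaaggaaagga

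These windows are Elane at chr10:79348807-79349056, Prtn3 at chr10:79342162-79342358, Mpo at chr11:87607036-87607082, Ltf at chr9:110921546-110921795, Camp at chr9:109751971-109752220 on the minus strand and Ngp at chr9:110322062-110322253. The table of promoters held 9 of the 10 members, all but Mmp9. Over the whole 250 bases, GAGGAAG was present in 3 of 3 early and 2 of 6 late windows (S100a8 and Lcn2), against 10.6% of all 32851 promoters of that length. TTGCNNAA was in 0 of 3 early and 4 of 6 late windows (Ltf, Ngp, S100a9 and Lcn2), against 9.56% of all. The p53 half-site, the decamer of which p53 binds 2 copies, was found in 0 of 3 early windows and in 1 of 6 late ones, that of S100a9, and in 7.13% of all windows. A match only describes the letters of these windows.

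The values are RPKM, reads per kilobase of exon per 1000000 reads on exons. Depth was estimated from the spacing of the smallest values of a sample, which are whole multiples of what 1 read is worth, and ranged from 4.78 to 10.96 (in units of 1000000 reads), so that 1 read on Elane was worth an RPKM of 0.0992 in the deepest and 0.228 in the shallowest sample. Trp53 itself was at 21.6 to 25.04 in the Trp53-/- mock samples and at 43.4 to 49.5 in the wild-type mock samples, but after IR it overlapped between genotypes in non-B cells (34.6 to 36.4 and 35.0 to 38.6). A value for the whole gene does not show which exons its reads came from. As a further check of the labels, 6 of 6 p53 target genes rose after IR in wild-type non-B cells and 0 of 6 in Trp53-/- non-B cells. The share of 1440 olfactory and vomeronasal receptor genes with a value above 0, genes that blood cells do not use, was 5.42% to 9.31% in mock samples, and reached 51.3% in irradiated wild-type non-B cells and 47.3% in irradiated wild-type B cells. Summed over 8 T cell markers, RPKM was 303 to 671 in the non-B and 35.4 to 75.6 in the B samples. The sum over 8 B cell markers was 854 to 1068 in the B samples and still 223 to 586 in the non-B samples. All 13 genes of mature neutrophils that the files list were above 0 in all 12 non-B samples.

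In non-B cells, the early genes had modest levels that varied widely among samples of the same group. Elane had an RPKM of 46.2, 42.0, 4.58 and 7.70 in wild-type mock replicates 1 to 4, and 22.0, 10.4, 2.73 and 2.64 after IR. In Trp53-/- non-B cells it was at 3.32 and 13.9 in mock samples and at 7.40 and 5.16 after IR. Wild-type mock replicates 1 and 2 thus stood far above all other non-B samples, and the ranges of the 4 groups overlapped.

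Mpo and Prtn3 were spread in a similar way, though the order of the lower samples differed. Mpo was at 45.1, 41.5, 6.29 and 9.27 in wild-type mock samples, at 17.6, 8.24, 4.00 and 3.21 after IR, at 4.54 and 15.5 in Trp53-/- mock samples and at 6.44 and 4.58 in the irradiated ones. Prtn3 was at 39.5, 27.8, 2.39 and 5.34 in wild-type mock samples, at 15.005, 10.01, 4.79 and 2.75 after IR, at 2.45 and 10.1 in Trp53-/- mock samples and at 5.89 and 1.58 after IR. In each of the 3 genes, wild-type mock replicates 1 and 2 were the 2 highest of the 12 samples. The highest of these samples exceeded the lowest between 14.1-fold and 24.9-fold.

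The late genes were far more abundant and, in RPKM, more even, although the removal of duplicate reads limits the highest values, as described below. S100a8 and S100a9 encode the subunits of calprotectin, which binds calcium and metal ions and makes up much of the cytosolic protein of a neutrophil. S100a8 had an RPKM of 175, 168, 125 and 143 in wild-type mock samples, 226, 222, 193 and 144 after IR, 135 and 147 in Trp53-/- mock samples and 140 and 166 after IR. It was the highest of all genes in 5 of the 12 non-B samples. S100a9 was at 135, 121, 97.2 and 102 in wild-type mock samples, at 160, 158, 136 and 113 after IR, at 116 and 142 in Trp53-/- mock samples and at 129 and 156 after IR.

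Ltf encodes lactoferrin, an iron-binding protein, Camp the antimicrobial cathelicidin and Ngp a neutrophil granule protein of the same structural family. Ltf was at 81.7, 68.4, 24.6 and 34.1 in wild-type mock samples, at 67.9, 55.0, 34.0 and 36.8 after IR, at 37.7 and 58.2 in Trp53-/- mock samples and at 46.2 and 61.4 after IR. Camp was at 87.3, 73.3, 28.9 and 39.4, at 75.0, 56.9, 36.4 and 39.0, at 42.8 and 73.5, and at 56.0 and 63.6 in the same 4 groups. Within each wild-type group both genes were highest in replicates 1 and 2, as the early genes were, and the 4 groups overlapped. Ngp ranged from 63.8 to 156 over the 12 non-B samples.

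Lcn2 encodes lipocalin 2, which captures bacterial siderophores, and Mmp9 the protease of the gelatinase granules. Lcn2 was at 112, 106, 38.3 and 62.5 in wild-type mock samples and at 124, 108, 90.0 and 69.0 after IR, and between 60.9 and 84.5 in the 4 Trp53-/- samples. Mmp9 was at 93.3, 83.6, 38.5 and 68.6 in wild-type mock samples and at 111, 73.7, 76.3 and 49.3 after IR. In Trp53-/- cells Mmp9 was at 38.4 and 44.1 in mock samples and at 33.3 and 31.0 after IR. Both irradiated Trp53-/- samples lay below all 8 wild-type samples, and so, narrowly, did Trp53-/- mock replicate 1 (38.39 against a lowest wild-type value of 38.49). Over the 12 non-B samples, the highest value of a late gene exceeded its lowest between 1.64-fold and 3.57-fold.

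**Figure D1:**
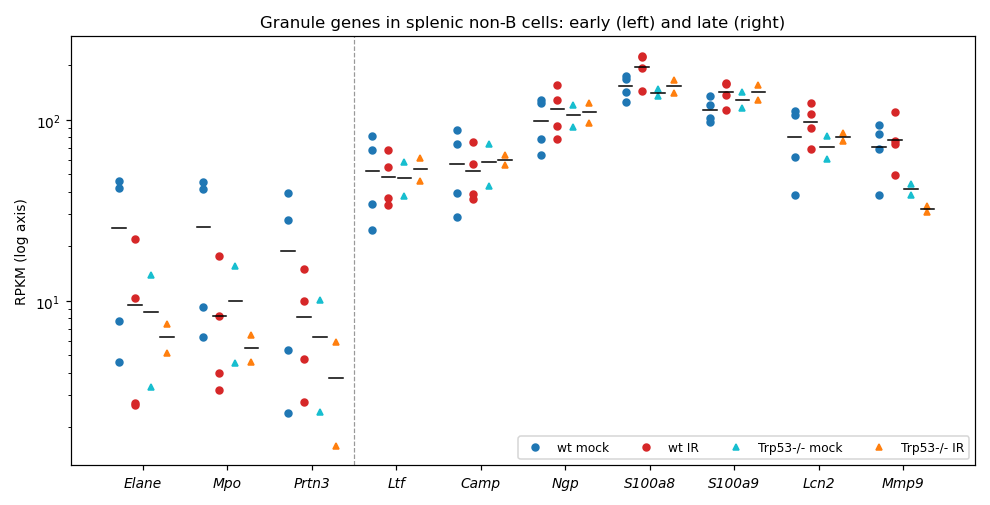
RPKM of the 10 granule genes in the 12 non-B samples on a log axis, with a point for each sample, a short line at each group mean and the early genes left of the dashed line. Within wild-type mock cells Elane and Prtn3 spread over more than a 10-fold range and Mpo over a 7.17-fold range, while the late genes lie higher and closer together.

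Early and late genes therefore parted from each other from sample to sample. On the log2(RPKM + 0.5) scale, the mean of the 7 late genes exceeded that of the 3 early genes by 1.36, 1.47, 3.45 and 3.14 in wild-type mock non-B cells and by 2.72, 3.35, 4.24 and 4.34 after IR. In Trp53-/- cells the gap was 4.11 and 2.70 in mock samples and 3.39 and 4.46 after IR. The gap was larger in the irradiated sample for each of the 4 replicate numbers of the wild type, although the ranges of the wild-type groups overlapped. Across the 12 samples, Pearson's r between 2 early genes was 0.928 to 0.981, between 2 late genes 0.245 to 0.984 and between an early and a late gene 0.171 to 0.825. Ltf and Camp (0.984), Ltf and Ngp (0.933) and Camp and Ngp (0.911) were close, whereas S100a9 and Mmp9 had the lowest value. These correlations share libraries and groups and are given as a description.

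**Figure D2:**
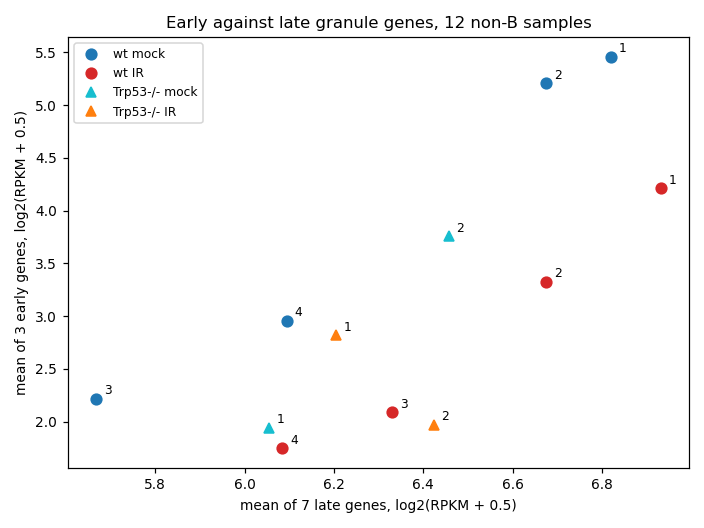
Mean log2(RPKM + 0.5) of the 3 early genes against that of the 7 late genes in each of the 12 non-B samples, with replicate numbers beside the points. For numbers 1, 2 and 4 of the wild type, the irradiated sample lies below the mock sample in its early genes at a similar late level, for number 3 the early means are close (2.21 and 2.09) and the late mean is higher after IR (6.33 against 5.67), and the early genes span a wider range than the late ones.

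How the granule genes responded to IR with p53 present was asked in wild-type non-B cells. None of the 10 members was called (0 of 10, limma, adjusted p under 0.05 and absolute log2 fold change above 0.58), where 9.79% of the 14138 genes tested were called. At an unadjusted p under 0.05 there were 2, S100a8 and S100a9. The early genes had negative log2 fold changes with large standard errors, -1.26 (SE 0.83, adjusted p = 0.312) for Elane, -1.398 (SE 0.69, adjusted p = 0.175) for Mpo and -0.69 (SE 0.84, adjusted p = 0.595) for Prtn3. Those of the late genes lay between -0.07 for Camp and 0.38 for Lcn2, with a median of 0.22, and the median over all genes tested was -0.03. A bulk sample cannot tell apart fewer cells of a type and less RNA per cell.

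Mock and irradiated samples were then set side by side by replicate number. Elane after IR was at 0.477, 0.248, 0.597 and 0.343 of the mock sample with the same number, and Mpo at 0.391, 0.198, 0.635 and 0.346, so both were lower for 4 of 4 numbers. Prtn3 was at 0.380, 0.360 and 0.515 for numbers 1, 2 and 4 and at 2.00 for number 3. In wild-type non-B cells, samples of the same number deviated together, although 2 of the 4 mock samples correlated better with an irradiated sample of another number. With the replicate number as a block in a fit of the 8 wild-type samples, an alternative added after the values were seen, Elane (adjusted p = 0.0110, SE 0.21) and Mpo (adjusted p = 0.0132, SE 0.24) were called lower, in limma, and Prtn3 was not (adjusted p = 0.226). In that fit 10.5% of genes were called. Elane and Mpo remained called when any 1 of the 4 pairs was left out, with limma adjusted p up to 0.0439 and 0.0490. Prtn3 was called in 1 of these 4 fits, that without pair 3 (adjusted p = 0.00583). All 4 fits used the same numbers as pairs, so they cannot show whether the numbers pair the samples. The main test, without the block, called none of these genes. Of the late genes, 0 of 7 were called with the block. Over 27 alternative settings, the block fit of all 4 pairs included, limma gave Elane log2 fold changes of -1.84 to -0.18 (adjusted p from 0.011 to 0.945). Mpo was at -1.89 to -0.77 (limma, adjusted p from 0.0132 to 0.685). With 1 sample left out, the ranges were -1.84 to -0.78 for Elane and -1.89 to -0.97 for Mpo. The weakest values of both genes thus came from other settings. The share of receptor genes above 0 was 8.61% to 51.3% in the irradiated and 8.33% to 9.31% in the mock samples of these cells.

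**Figure D3:**
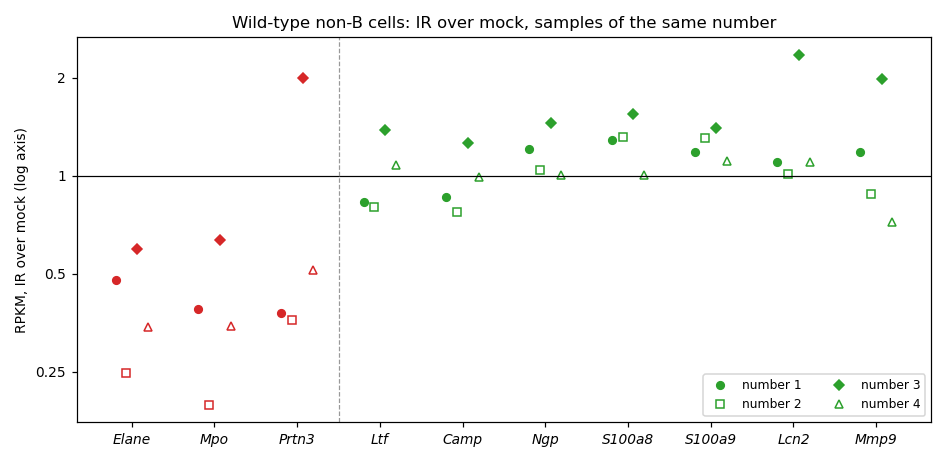
RPKM after IR divided by RPKM in the mock sample of the same replicate number, wild-type non-B cells, on a log axis with a line at 1, early genes in red and late genes in green. Elane and Mpo lie below 1 for 4 of 4 numbers, and Ngp, S100a8, S100a9 and Lcn2 lie above 1 for 4 of 4.

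Of the late genes, Ngp, S100a8, S100a9 and Lcn2 were higher after IR for 4 of 4 numbers, by 1.01-fold to 1.55-fold for S100a8 and by 1.11-fold to 1.401-fold for S100a9. Camp was higher for 1 of 4 numbers, and Ltf and Mmp9 for 2 of 4. The log2 fold changes were 0.35 (SE 0.15, adjusted p = 0.123) for S100a8 and 0.31 (SE 0.14, adjusted p = 0.131) for S100a9, below the threshold of 0.58.

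The study kept 1 read of each set of duplicates, which limits the reads a short, abundant gene can hold. As RPKM multiplied by estimated depth, the gene with the most reads per exonic base had between 1.47 and 1.92 of them in each of the 24 samples. The lowest of these values was in the shallowest sample and the highest in the deepest. S100a8 was at 1.92, 1.78, 1.05 and 1.31 reads per base in wild-type mock non-B cells and at 1.75, 1.56, 1.67 and 1.46 after IR, and was itself that gene in 5 of these 8 samples. S100a9 was at 0.821 to 1.48 reads per base over the 12 non-B samples. The early genes did not pass 0.506. Depth was 8.45 to 10.96 in the wild-type mock and 7.03 to 10.16 in the wild-type IR samples, in units of 1000000 reads. On the RPKM scale S100a8 was higher after IR for 4 of 4 numbers, and in reads per base, without scaling for depth, for 2 of 4. The same counts held for Ngp, S100a9 and Lcn2. Over the 12 non-B samples, S100a8 was at 65.2% to 100% of the highest gene, Ngp at 33.3% to 74.0% and Ltf at 12.8% to 46.6%. Elane was at 1.42% to 26.3%. The part of this limit in the S100a8 and S100a9 values was not tested. Nor was its part in the evenness of the late genes or in their gap above the early genes.

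**Figure D4:**
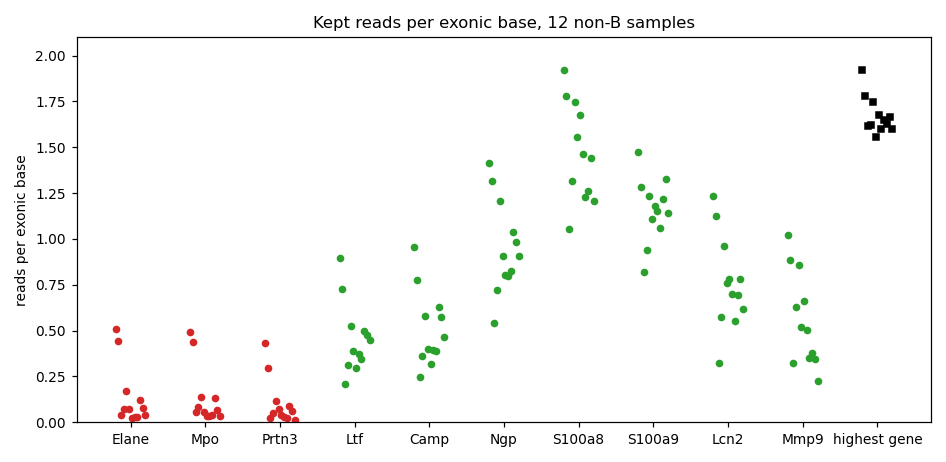
Reads kept per exonic base, from RPKM and estimated depth, for the 10 granule genes (early in red, late in green) and for the gene with the most reads per base (black) in the 12 non-B samples. S100a8 reaches the level of the highest gene, and the early genes stay at or below 0.506 reads per base.

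Erythroid markers and proliferation genes stood high in the same wild-type mock samples as the early genes. Red blood cells had been lysed before the sort. In wild-type mock replicates 1 to 4, the sum over 9 erythroid markers was 468, 455, 174 and 189, and that over 10 proliferation genes 396, 370, 116 and 135, so both were high in the samples with high Elane. After IR these sums were 136, 45.2, 43.8 and 65.9, and 149, 105, 74.9 and 83.4. In the test of wild-type IR against mock, 6 of 9 erythroid markers fell, among them Klf1, an erythroid transcription factor (-4.18), and 3 of 10 proliferation genes fell (Ccna2, Ccnb1 and Cdk1). Car1 was at 0 in at least 1 irradiated sample, and the other erythroid and all proliferation genes were above 0 in all 8. Their part in the early genes' values was not tested.

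Genes that neighbour the members in function were counted next. Among 5 other early granule genes, 0 were called after IR in wild-type non-B cells (median log2 fold change -0.32). Ctsg, which encodes cathepsin G, a protease of the same granules, was at 30.7, 21.7, 3.27 and 3.54 in mock samples and at 7.81, 3.93, 1.37 and 2.52 after IR (-1.41, SE 0.73, adjusted p = 0.193). Ms4a3, a membrane protein gene of granulocyte precursors, was at 9.39, 8.18, 0.690 and 0.748 in mock samples, the same 2 samples being high. Cst7 and Ctsc, which encode cystatin F and cathepsin C and are used by other leukocytes too, were even, at 26.3 to 32.1 and at 32.6 to 45.1.

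Other late and mature genes were counted in the same comparison, in which 9.79% of all genes were called. Of 12 other late granule genes tested, 1 rose, Adam8 (1.00), a share near that of all genes, with a median over the list of 0.38. Of 13 mature neutrophil genes, 4 rose, the chemokine receptor Cxcr2 (0.82), G0s2 (0.67), the decoy receptor Il1r2 (1.64) and Trem1 (1.39), and the median was 0.82. Cxcr2 was at 85.8, 80.3, 41.2 and 63.6 in mock samples and at 144, 130, 123 and 78.2 after IR. Of 6 protease inhibitors tested, Stfa2 (1.52) and Timp1 (0.77) rose, and Stfa2 was at 0 in 1 mock sample. Of 10 granulocyte transcription factors, 0 rose and 1 fell, Gata1 (-2.75), which acts in the erythroid, megakaryocyte and eosinophil lineages. Spi1, which encodes PU.1, was at 49.9 to 68.3 in mock samples and at 55.1 to 99.4 after IR (0.41, SE 0.19, adjusted p = 0.163).

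Without p53, no response of the members was detectable in non-B cells with 2 samples a group. In limma 0 of 10 were called, 0 had an unadjusted p under 0.05, and 0.488% of all genes were called. The log2 fold changes were -0.15 (SE 1.18) for Elane, -0.60 (SE 0.97) for Mpo and -0.62 (SE 1.18) for Prtn3, and those of the late genes lay between -0.35 for Mmp9 and 0.19 for Lcn2. The difference between the wild-type and Trp53-/- responses, tested itself, was called for 0 of 10 members in limma, with 0 at an unadjusted p under 0.05, and for 6.53% of all genes. It was -1.11 (SE 1.44) for Elane, -0.80 (SE 1.19) for Mpo and -0.08 (SE 1.45) for Prtn3, so these errors leave a difference in either direction possible. None of the other early, other late and mature neutrophil genes was called in Trp53-/- cells after IR. The difference between the genotypes' responses was also called for 0 of 5 other early, 0 of 12 other late and 0 of 13 mature neutrophil genes.

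The genotypes were then compared within each treatment. In mock non-B cells 0 of 10 members were called in limma, with 0 at an unadjusted p under 0.05 (0.0566% of genes were called). The early genes had log2 differences, Trp53-/- minus wild type, of -1.19 (Elane), -1.07 (Mpo) and -1.07 (Prtn3) with SE of 0.84 to 1.03. In irradiated non-B cells 1 of 10 was called, where 20.6% of genes were. This was Mmp9, lower in Trp53-/- cells by -1.20 on the log2 scale (SE 0.33, limma, adjusted p = 0.0178), from means of 77.5 ± 25.2 (SD, n = 4) and 32.1 ± 1.68 (SD, n = 2). Its call was lost without Trp53-/- IR replicate 1 (adjusted p = 0.0804) or replicate 2 (0.111), and with the receptor genes as a covariate (0.0740). In mock cells Mmp9 was at -0.70 (SE 0.33, adjusted p = 0.842), and the wild-type response differed from that of Trp53-/- cells by 0.50 (SE 0.47, adjusted p = 0.541).

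Granule transcripts were also measured in the B cells. Among the 36 values of the early genes in the 12 B samples, 10 were 0 and 1 was above an RPKM of 1. Elane was at 1.27, 0.116, 0.997 and 0 in wild-type mock B cells and at 0 in both Trp53-/- mock samples. Mpo was between 0.0410 and 0.955 in wild-type mock B cells, and Prtn3 between 0.102 and 0.663. At these depths 3 reads are worth up to 0.683 for Elane, 0.183 for Mpo and 0.363 for Prtn3, and the median of Mpo over the 12 B samples was 0.232.

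The late genes were above 0 in all 12 B samples. S100a8 was at 82.1, 52.5, 61.8 and 19.1 in wild-type mock B cells, at 55.3, 96.1, 66.2 and 34.9 after IR, at 22.3 and 30.4 in Trp53-/- mock cells and at 23.1 and 32.0 after IR. Ltf was at 13.5, 4.36, 2.58 and 0.342 in wild-type mock B cells, at 1.06, 3.11, 2.38 and 1.65 after IR and between 0.438 and 1.29 in Trp53-/- B cells. Wild-type mock replicate 1 was the highest of the 12 B samples for 8 of the 10 members, and wild-type IR replicate 2 for S100a8 and S100a9. For S100a9 and Ngp, the wild-type mock values were 83.2, 51.5, 58.4 and 15.9, and 40.0, 13.3, 8.24 and 2.15.

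Of the members, 8 of 10 passed the filter in B cells, all but Mpo and Prtn3, and Elane passed through wild-type mock replicate 1 alone. After IR, 0 of 8 were called in wild-type B cells in limma, with 0 at an unadjusted p under 0.05, where 24.5% of genes were called, and the log2 fold changes lay between -0.96 (Camp) and 0.31 (S100a8) with SE of 0.37 to 0.72. Without wild-type mock replicate 4, the B sample with the lowest Ltf, 3 were called lower, Camp (adjusted p = 0.0328), Ltf (0.0384) and Elane (0.0281), whose call follows in part from the filter, since it passed only through a mock sample, and from leaving out a mock sample at 0. In Trp53-/- B cells 0 of 8 were called (24.2% of genes), and the difference between the genotypes' responses was called for 0 of 8 (11.9%), both with 0 at an unadjusted p under 0.05. Trp53-/- against wild-type B cells gave 0 of 8 in mock cells (0.0574%), with 3 at an unadjusted p under 0.05 (Ltf, Mmp9 and Ngp), and 0 of 8 after IR (17%), with 1 at an unadjusted p under 0.05. S100a8 was lower in irradiated Trp53-/- B cells by -1.11 (SE 0.48, adjusted p = 0.0882), and was called without wild-type mock replicate 4 (0.0185) or wild-type IR replicate 4 (0.0390).

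Non-B and B cells were separated by all of these genes. All 10 members were called higher in non-B cells in wild-type mock, wild-type IR, Trp53-/- mock and Trp53-/- IR cells, where 17.3%, 20.2%, 12.4% and 15.1% of genes were (24.7%, 35.5%, 18.2% and 26.2% in either direction). In none of the 4 conditions did the members' samples of the 2 cell types overlap. The share of all genes without overlap was not counted, and the Trp53-/- conditions set 2 samples against 2. The lack of overlap therefore only describes these samples and does not set the members apart from other genes. The early genes passed the filter through the non-B samples, but for 1 B sample of Elane, so that their calls follow in part from the filter. For the late genes, the mean RPKM in wild-type mock cells was between 2.18-fold (S100a9) and 26.1-fold (Mmp9) higher in non-B cells, with a median of 6.61-fold. The median was 15.9-fold in wild-type IR, 37.3-fold in Trp53-/- mock and 28.5-fold in Trp53-/- IR cells. No fold is given for the early genes, which were at or near 0 in B cells.

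On the log2 scale of the fit, S100a8 (1.66) and S100a9 (1.32) differed least between the wild-type mock fractions and Mmp9 (4.598) most among the late genes, with SE of 0.32 to 0.69 over the members. In Trp53-/- cells the calls of Elane and Prtn3 depended on single samples. Both were lost in mock cells without non-B replicate 2 (adjusted p = 0.0960 and 0.134), and after IR Prtn3 was lost without non-B replicate 1 (0.235) or either B sample (0.109 and 0.0960) and Elane without B replicate 1 (0.0601). The ratio of S100a8 to Ltf was 2.15 to 5.68 in the 12 non-B samples and 6.06 to 55.9 in the 12 B samples, and the ranges did not overlap. S100a8 to S100a9 was 1.04 to 1.42 in non-B and 0.927 to 1.26 in B samples. The reads per base of S100a8, near the highest of any gene in non-B cells, move with this comparison, and their part was not tested. The difference between the IR responses of wild-type non-B and B cells was called for 0 of 10 members, with 0 at an unadjusted p under 0.05, and for 19.1% of genes.

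**Figure D5:**
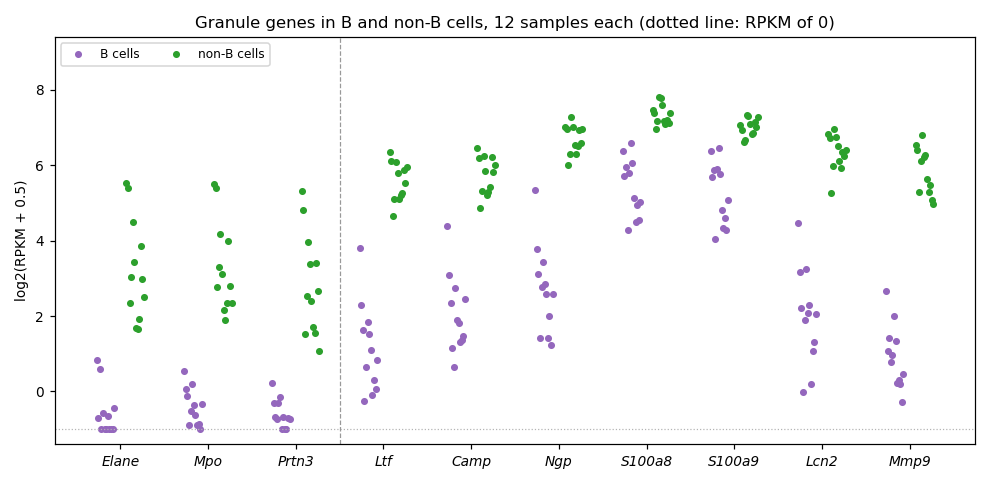
Level of the 10 granule genes as log2(RPKM + 0.5) in the 12 B samples (purple) and 12 non-B samples (green), with the dotted line at an RPKM of 0 and the early genes left of the dashed line. The cell types do not overlap within any condition, the early genes reach 0 in B cells, and S100a8 and S100a9 stay well above it. How many of all genes lack overlap was not counted, so the lack of overlap only describes these samples.

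The genes most alike in pattern were taken from 13391 candidates by Pearson's r over the 12 non-B samples. With the mean of the early genes these were Iqgap3 (0.973), Tinagl1 (0.973), E2f2 (0.970), Eif2ak1 (0.965) and Incenp (0.960). With the mean of the late genes they were Inhba (0.948), Itgb2l (0.937), Chil3 (0.933), Olfml2b (0.929) and Fcnb (0.921). Iqgap3 ranged from 1.23 to 6.89 RPKM and E2f2 from 16.7 to 41.9. Among the marker genes, Ccnb1 had r of 0.810 with the early and 0.325 with the late genes, Klf1 0.591 and 0.101, and the T cell gene Cd3e -0.484 and -0.581. All of these share the libraries and the 4 groups.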

How the data were processed

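The authors deposited 1 table of RPKM values per sample, rounded to 3 decimals. Per the study's methods, bases under a quality of 20 were masked, reads were aligned to mm9 with TopHat (TopHat2 2.0.8 in the submitters' notes), 1 read of each duplicate set was kept, and exonic reads were counted with featureCounts 1.4.5. Counts are not in the tables, so the count test of the study was not repeated. Here limma 3.58.1 (R 4.3.3) was fitted on log2(RPKM + 0.5) with a mean-variance trend, for genes above an RPKM of 1 in at least 1 sample, over the 12 samples of a cell type (4 group means), or over all 24 samples to compare cell types. A fold change on this scale understates that of low genes. A call needed a Benjamini-Hochberg adjusted p under 0.05 together with a log2 fold change past 0.58 in size. The fits were tested on simulated data with a smaller spread than that of the early genes. That test does not show how well changes in those genes are detected. Depth was estimated with exonic lengths from GENCODE for 91.1% of genes. Between 61.5% and 71.9% of low values were whole reads to within 0.1, against 20% by chance, too few to recover counts. The members and gene lists were chosen with earlier results of these data known. Named were all members, at most 4 genes of each list by mean RPKM in non-B cells, and the 5 genes most alike to each set. Called list genes outside these 4 (Adam8, G0s2, Il1r2, Trem1, Timp1, Gata1, Klf1, Ccnb1 and Cdk1) were picked after their values were seen. Of the listed genes, Chi3l3, Ly6g, Adgre1 and Hba-a1 had no row under that symbol.

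Replicate numbers come from the labels and name no shared animal or day. Deviations from the group means correlated between mock and IR samples of the same number by 0.155 to 0.330 in wild-type non-B cells, in 4 of 4 pairs above 0.1. Unlike numbers passed too, 1 with 2 (0.182 and 0.313) and 3 with 4 (0.322 and 0.131). The rule thus cannot tell pairing by number from a split of replicates 1 and 2 from 3 and 4. The ratios by number and the block fits used the numbers as pairs, and the main tests did not. No other comparison had 3 or more pairs of the same number that all passed.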

Additional observations from a re-analysis of the deposited data

How the results depend on the processing

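The other settings were pseudocounts of 0.1 and 1, quantile normalization, median-ratio scaling, no filter or at least 4 samples past an RPKM of 1, no trend, no fold threshold, receptor genes as a covariate, wild-type samples alone, wild-type replicates 1 and 2 or 3 and 4 left out, all 24 samples in 1 fit, the replicate number as a block, and each sample left out in turn. The counts of members called that moved by over 1.5 times were in 4 comparisons. For wild-type IR against mock non-B cells the count of 0 became 1 (Mpo, adjusted p = 0.0368 in limma) with the block over 12 samples and 2 with the block over wild-type samples. For Trp53-/- against wild-type irradiated non-B cells the count of 1 became 0 with no filter or the receptor covariate, 2 with the replicate block (Mmp9 and Prtn3), and 0 to 1 with a sample left out. For wild-type IR in B cells 0 became 2 without wild-type replicates 3 and 4, and 0 to 3 with a sample left out. For Trp53-/- against wild-type irradiated B cells 0 became 3 with the replicate block (S100a8, S100a9 and Mmp9), 2 without wild-type replicates 3 and 4, 1 in the fit of 24 samples and 0 to 2 with a sample left out. The cause was not tested. The block moved no other count of members called. The numbers do not pair the samples in these B cell and genotype comparisons, and in wild-type non-B cells mock replicate 2 correlated best with IR replicate 1 (0.313 against 0.155 with its own number) and mock replicate 3 with IR replicate 4 (0.322 against 0.221). In Trp53-/- non-B cells, whose 2 numbers deviated oppositely, the IR comparison on these 4 samples alone called 0 members with the numbers as given and 0 with them crossed, a pairing added after the data were seen.

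No result whose sign turned was called with the settings of the report, but Ltf and Camp in wild-type B cells were called lower without mock replicate 4 or without wild-type replicates 3 and 4, and Prtn3 in wild-type non-B cells with the block and without pair 3. In wild-type non-B cells, leaving out replicates 1 and 2 gave log2 fold changes of 0.0124 for Prtn3, 0.29 for Ltf and 0.16 for Camp, median-ratio scaling 0.0446 for Ltf, and the receptor covariate 0.40 for Ltf and 0.32 for Camp. In wild-type B cells, leaving out replicates 1 and 2 gave 0.63 for Ltf, 0.10 for Camp, 0.45 for Ngp and 1.09 for Lcn2, the receptor covariate -0.10 for S100a8 and -0.30 for S100a9, and a pseudocount of 0.1 gave 0.0381 for Lcn2. The genotype difference of the IR response of Prtn3 became 0.57 with the covariate and 0.63 without wild-type replicates 1 and 2. With a sample left out, the ranges that crossed 0 in wild-type non-B cells were -0.35 to 0.18 for Camp, -0.30 to 0.27 for Ltf and -0.12 to 0.34 for Mmp9. In wild-type B cells they were -0.91 to 0.59 for Lcn2, -1.29 to 0.0622 for Ltf, -0.65 to 0.0371 for Mmp9, -1.18 to 0.13 for Ngp, -0.12 to 0.57 for S100a8 and -0.25 to 0.54 for S100a9. In Trp53-/- non-B cells they were -1.11 to 0.81 for Elane, -1.43 to 0.23 for Mpo and -1.54 to 0.31 for Prtn3, and for the genotype difference -1.63 to 0.0347 for Mpo and -1.001 to 0.85 for Prtn3. All 10 members were called higher in non-B cells with any sample left out in wild-type cells, and 8 to 10 in Trp53-/- cells.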

Other observations

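Genes of other blood cells in the non-B fraction were counted with the same limma test, in which 9.79% of all genes were called in wild-type and 0.488% in Trp53-/- cells. After IR in wild-type cells, 2 of 8 T cell markers fell (Cd8a and Cd8b1), 1 of 8 B cell markers fell (Cd22, log2 fold change -0.79), 1 of 7 stem and progenitor markers fell (Myb, -0.61), and 0 of 6 megakaryocyte and platelet markers were called. Of 8 eosinophil, basophil and mast cell markers, Gata2 and Ms4a2 fell in wild-type cells (-0.81 and -0.63) and in Trp53-/- cells (-1.55 and -1.59). In Trp53-/- cells Ppbp, 1 of the 6 megakaryocyte and platelet markers, fell after IR (-1.58), and 0 of 9 erythroid markers and 0 of 10 proliferation genes were called. The difference between the genotypes' responses, tested itself, was called for 1 of 9 erythroid markers (Car1, -4.64) and 0 of 10 proliferation genes. It was called for 2 of 6 megakaryocyte and platelet markers, Pf4 (1.60) and Ppbp (1.67), and for 6.53% of all genes. Genes beyond the 4 most abundant of each list were named after their values were seen.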
